A study of Mus musculus with 57 samples.

Results

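Interferon-stimulated effector genes are the genes that a cell switches on after interferon has bound its receptors, and their products act directly on viruses, on intracellular microbes or on interferon signalling itself. A list of 50 such mouse genes was followed through single prostate cancer cells sorted from bone. Of these, 48 were among the 12885 genes of the table that holds all cells, and Oas2 and Ifit3b were not analysed here. The 48 genes fell into 10 groups by role: oligoadenylate synthetases, IFIT proteins, the ISG15 system, nucleic acid sensors and editors, antiviral enzymes and Mx GTPases, GBP and IRG GTPases, membrane restriction factors, TRIM ligases with Sp100, PARP proteins with Dtx3l, and other interferon-induced genes.

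The cells came from C57BL/6 mice that had received an intracardiac injection of RM1, a mouse prostate cancer cell line, carrying the fluorescent protein eCFP and the luciferase luc2 and stained with the membrane dye PKH26. Dye-retaining cells were sorted from bone metastases as dormant and dye-negative cells as proliferating, between 13 and 26 days after injection. The 57 cells were taken from 8 mice, with 28 dormant cells (6 mice) and 29 proliferating ones (6 mice). They were described in 3 groups: 22 labelled dormant cells with an eCFP value of at least 100 (4 mice, days 14 to 17), 6 low-label dormant cells with an eCFP value under 100 (4 mice, days 15 to 26) and the 29 proliferating cells (days 13 to 18). The 3 groups shared the same cell line, host strain and dye labelling, and each cell was 1 library, so the mouse was taken as the replicate.

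Type I interferons signal through IFNAR1 and IFNAR2 and the JAK kinases to a transcription factor complex that binds the interferon-stimulated response element of its target genes. Interferon gamma signals through its own receptor to factors that bind the gamma-activated site, and the GBP and IRG GTPases are well known targets of that arm. Type I interferon signalling in tumour cells is known as a brake on the outgrowth of prostate and breast cancer in bone, and myeloid cells of the marrow respond strongly to interferon as well.

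Promoter sequence was compared between the members and all genes. Windows of 300 bases, from 250 before to 50 after the annotated start, were available for 39 members in the RefSeq promoter table (GRCm38.p6). The core of the interferon-stimulated response element was searched on both strands as GAAA, any 2 bases and GAAA again, called the GAAA repeat below. Overlapping matches counted, and it was found in 19 of the 39 member windows (48.7%) against 1079 of 27025 windows of all genes (3.99%). The core of the gamma-activated site, TTCNNNGAA, was found in 10 member windows (25.6%) against 2582 of all windows (9.55%). The 2 motifs overlapped in 2 member windows and in 23 of all windows. The GAAA repeat was most frequent in the GBP and IRG GTPases (5 of 6 windows), followed by the membrane restriction factors, where Bst2, Ifitm2 and Ifitm3 had a match and Ifitm1 had none. No window was matched for Parp9, Parp14, Zbp1, Mx1, Mx2, Usp18, Rtp4, Dhx58 and Ifi27. A match is a description of the letters and not a shown binding site.

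The stretches around the match are given for the 6 described members above 0 in the most cells among those with a match before the annotated start. The matches of Ifitm3 and Eif2ak2 lie after the start and are not printed. Oas1a and Oas1g are added and were chosen after their values were seen, as members that passed against both other groups. They run 5′ to 3′ on the strand of the gene, capitals mark the GAAA repeat or its reverse complement, and positions are in GRCm38.p6.
Ifitm2 (chr7:140955983-140956052, minus strand): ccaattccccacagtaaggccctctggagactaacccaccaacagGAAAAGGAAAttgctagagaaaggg
Bst2 (chr8:71537572-71537647, minus strand): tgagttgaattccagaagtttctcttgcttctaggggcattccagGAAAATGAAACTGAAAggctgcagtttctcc
Irgm1 (chr11:48871428-48871457, minus strand): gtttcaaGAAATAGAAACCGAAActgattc
Gbp2 (chr3:142620559-142620628, plus strand): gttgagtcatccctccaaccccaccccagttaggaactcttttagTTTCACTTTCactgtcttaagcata
Gbp3 (chr3:142559954-142560029, plus strand): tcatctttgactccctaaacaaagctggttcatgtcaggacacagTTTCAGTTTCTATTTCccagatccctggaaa
Trim30a (chr7:104465205-104465274, minus strand): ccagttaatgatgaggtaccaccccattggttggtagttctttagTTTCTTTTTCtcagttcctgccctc
Oas1a (chr5:120907526-120907590, minus strand): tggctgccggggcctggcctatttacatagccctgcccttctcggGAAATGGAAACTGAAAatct
Oas1g (chr5:120887614-120887676, minus strand): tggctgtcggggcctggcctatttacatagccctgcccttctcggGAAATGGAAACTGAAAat
Bst2, Irgm1, Gbp3, Oas1a and Oas1g each held 2 overlapping matches in tandem. The annotated starts are those of RefSeq, and the GENCODE gene annotation places some of these bases within exons. That held for all 30 bases of the Irgm1 stretch, 27 of Gbp2, 5 of Ifitm2 and 4 of Gbp3. The Oas1a and Oas1g stretches had the same letter at 62 of 63 aligned bases. The members also sit in clusters of related genes. Oas3, Oas1g and Oas1a lie together on chromosome 5 (chr5:120753098-120907521), Ifitm2, Ifitm1 and Ifitm3 on chromosome 7 (chr7:140954837-141010770), and Gbp7, Gbp3 and Gbp2 on chromosome 3 (chr3:142530342-142638008). Reads of such near-identical neighbours can be split between copies by the counting, so the value of a single copy in the Oas1, Ifit, Ifitm and Gbp families is uncertain.

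The sequencing of the cells gave between 943496 and 5273065 reads per cell over all genes, and 1 read corresponded to between 0.628 and 3.29 normalised reads. Values of about that size therefore rest on a single read. No cell had an eCFP value between 87.6 and 327. The median eCFP value was 2034 in labelled dormant, 1361 in proliferating and 2.47 in low-label dormant cells. The low-label cells went against their label as tumour cells: a summed value of tumour epithelial markers (Krt8, Krt18 and related genes) was between 0 and 12.5, against at least 1372 in every labelled dormant and at least 391 in every proliferating cell. A list of 18 pan-leukocyte genes summed to between 39517 and 89609 in the low-label cells, of which 10 to 18 were above 0 in each. The same sum was between 0 and 18861 in labelled dormant cells (median 116) and between 0 and 1513 in proliferating cells (median 156). A cell with at least 5 of these 18 genes above 0 is called leukocyte-rich below, and 9 of 22 labelled dormant, 9 of 29 proliferating and all 6 low-label cells were. Library batches each held 1 sorted state, and batch cannot be told apart from state.

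**Figure D1:**
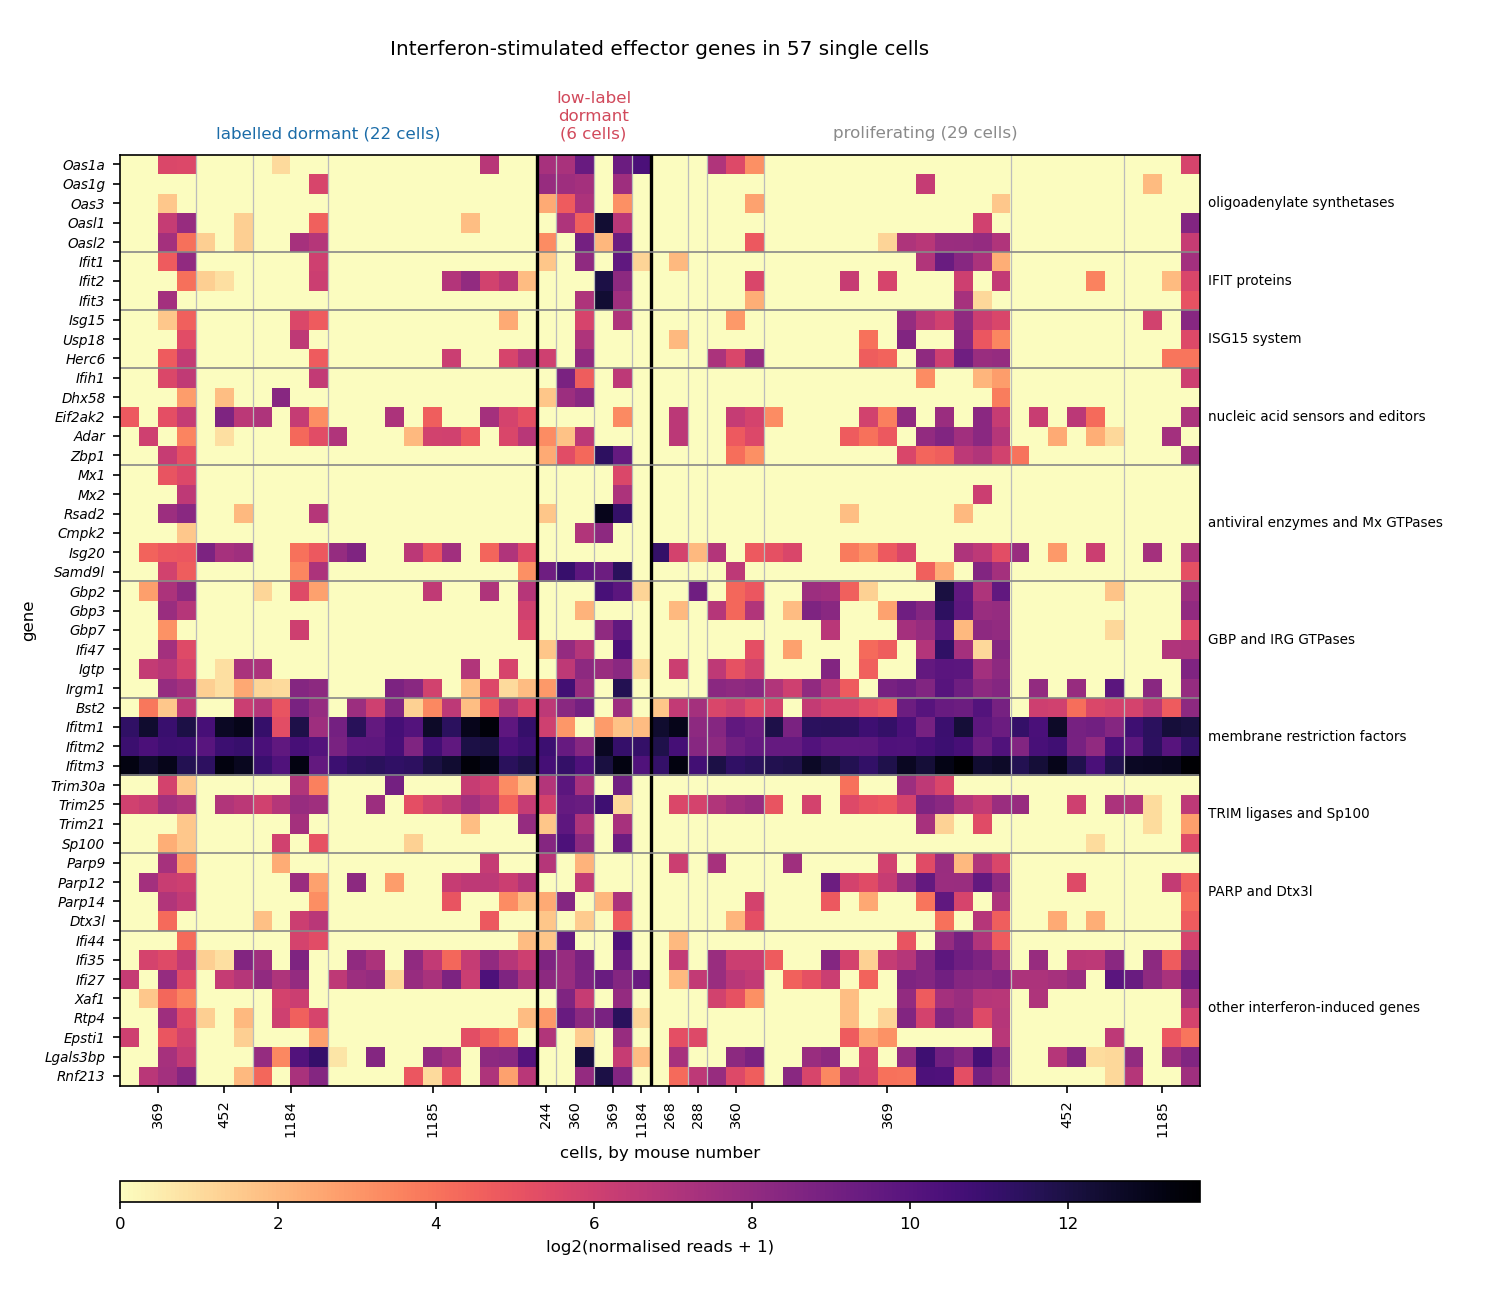
Values of the 48 members in each of the 57 cells, as log2(normalised reads + 1), with cells in columns ordered by group and mouse and members in rows ordered by role. The Ifitm genes are filled across the labelled dormant and proliferating cells, Ifitm1 is pale in the 6 low-label cells, and most other members are filled in a minority of cells, many of them from mouse 369.

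Most members were detected in a minority of the labelled tumour cells. A labelled dormant cell had between 7 and 43 of the 48 members above 0, with a median of 14. A proliferating cell had between 5 and 38, with a median of 15. A low-label dormant cell had between 10 and 39, with a median of 27.5. The ranges overlapped almost entirely. As means per mouse, the labelled dormant cells had 25.5 members above 0 in mouse 369, 13.0 in mouse 452, 21 in mouse 1184 and 14.1 in mouse 1185 (18.4 ± 5.91, SD, n = 4 mice). The proliferating mean was 15.7 ± 5.68 (SD, n = 6 mice) and the low-label mean 24.9 ± 9.99 (SD, n = 4 mice). The low-label spread came from mouse 1184, whose single cell had 10 members above 0, against mouse means of 29 to 31.5 in the others.

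Of the 48 members, 14 were above 0 in at least 50.0% of labelled dormant cells, 13 in at least 50.0% of proliferating cells and 35 in at least 50.0% of low-label cells. Ifitm1, Ifitm2 and Ifitm3 were above 0 in every labelled dormant and every proliferating cell. In all 6 low-label cells, Ifitm2, Ifitm3, Ifi27 and Rtp4 were above 0. Mx1 and Cmpk2 were at 0 in all 29 proliferating cells (a count of 0 allows up to 10.3% of cells). Isg20 was at 0 in all 6 low-label cells (a count of 0 allows up to 50.0%). These limits cover counting error only.

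The cells with the most members were counted by mouse, beside the number of cells that each mouse gave. At least 24 members were above 0 in 5 of 22 labelled dormant cells, of which 2 came from mouse 369, 2 from mouse 1184 and 1 from mouse 1185. These mice gave 4, 4 and 11 of the 22 cells. The same held for 7 of 29 proliferating cells, of which 5 came from mouse 369, 1 from mouse 360 and 1 from mouse 1185. Mouse 369 gave 13 of the 29 cells. All but 1 of the 5 labelled dormant cells were leukocyte-rich, whereas 4 of the 7 proliferating cells were not. The labelled dormant cells with 43 and 39 members above 0, both from mouse 369, had 16 and 15 of the 18 pan-leukocyte genes above 0. The proliferating cell with 38 members, from mouse 1185, had 14 pan-leukocyte genes above 0 and a summed neutrophil marker value of 31143. The next proliferating cell, from mouse 369, had 37 members and only 2 pan-leukocyte genes above 0.

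Across cells, the number of members above 0 went with the number of all genes above 0. Pearson's r was 0.715 and Spearman's rho 0.822 over the 22 labelled dormant cells, and r was 0.668 and rho 0.703 over the 29 proliferating cells, where points from 1 mouse share an animal and both counts share the depth of the cell. With the number of pan-leukocyte genes, r was 0.663 and rho 0.419 over labelled dormant cells. Over the 33 labelled dormant and proliferating cells that were not leukocyte-rich, r was 0.204 and rho 0.225. The median number of members was 17 in leukocyte-rich and 13 in other labelled dormant cells, and 19 against 12 in proliferating cells. The part of leukocyte transcripts and of the number of detected genes in these counts was not tested.

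**Figure D2:**
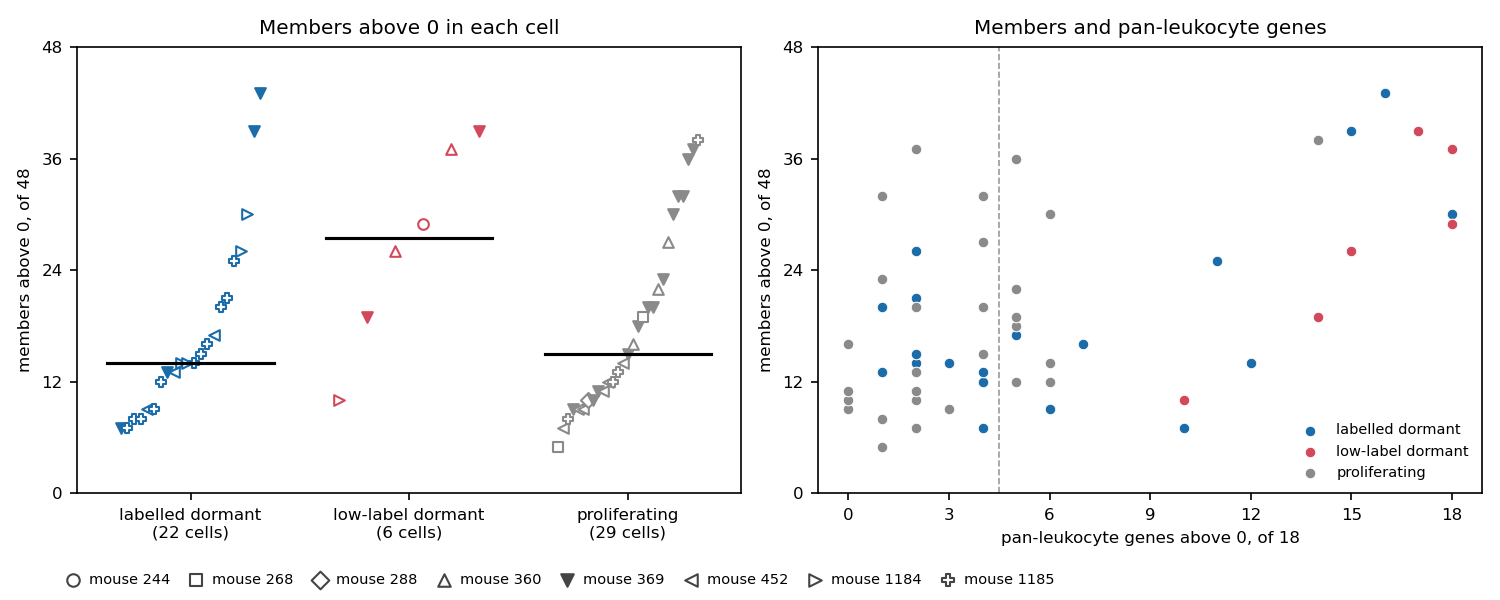
Left, number of the 48 members above 0 in each cell by group, with a symbol for each mouse, mouse 369 filled and a line at the group median (14, 27.5 and 15). Right, the same number against how many of 18 pan-leukocyte genes were above 0, with a dashed line between 4 and 5 genes. The labelled dormant and proliferating cells span the same range, and the proliferating cells with most members include several with few leukocyte genes.

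A core of 6 members that are classical markers of a type I response (Ifit1, Ifit3, Isg15, Rsad2, Usp18 and Oasl2) was followed cell by cell. None of the 6 was above 0 in 15 of 22 labelled dormant cells, in 15 of 29 proliferating cells and in 1 of 6 low-label cells. At least 3 of the 6 were above 0 in 4 labelled dormant cells, 3 of them leukocyte-rich and 2 from mouse 369. In proliferating cells it was 7, 3 of them leukocyte-rich, and 6 of these came from mouse 369, which gave 13 of the 29 cells. One proliferating cell of mouse 369 had all 6 above 0, at 329 for Ifit1, 162 for Ifit3, 276 for Isg15, 2.94 for Rsad2, 320 for Usp18 and 215 for Oasl2 in normalised reads. No labelled dormant and no low-label cell had all 6 above 0.

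The first comparison asked whether labelled dormant and proliferating tumour cells differed in these genes. Of the 45 members that could be tested, 0 passed at an adjusted p under 0.05 (limma on mouse means of log2(normalised reads + 1), Benjamini-Hochberg over 11841 genes), and 0.0% of all genes passed in either direction. At an unadjusted p under 0.05 it was also 0 members, beside 0.743% of all genes higher and 0.253% lower. On the recovered reads, edgeR called 0 members beside 11 of all genes higher (0.0929%), and DESeq2 called 0 members beside 54 higher (0.456%). The members' median difference was 0.09, against 0.10 over all genes tested, with 27 positive and 18 negative values. Standard errors of the members' differences lay between 0.72 and 1.87 (median 1.30), so differences within a few standard errors of 0 could not be resolved with 4 and 6 mice. Mx1, Mx2 and Cmpk2 were above 0 in 3 cells each and were not tested.

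The members with the smallest p in this comparison had large errors. On the higher side in labelled dormant cells stood Eif2ak2, the double-stranded RNA kinase PKR (1.47, SE 1.05), Trim30a (1.42, SE 1.26), Parp12 (1.27, SE 1.23), Rsad2, which encodes viperin (1.55, SE 1.58), and Rtp4 (1.32, SE 1.51). On the lower side stood Gbp3 (−1.43, SE 1.17), Bst2, which encodes the virus tether tetherin (−1.59, SE 1.53), Gbp2 (−0.997, SE 1.87), Ifi47 (−0.67, SE 1.29) and Herc6 (−0.68, SE 1.41). The adjusted p was 1.0 for each (limma). Without leukocyte-rich cells the members' median difference was 0.0019, and again 0 members passed. In that comparison Eif2ak2 stood at 3.63 and Rtp4 at 0.02, neither past the threshold.

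The second question was how the 6 low-label dormant cells differed from the tumour cells. Against proliferating cells, 7 of 45 members passed as higher, beside 325 of 11841 genes (2.74%), and 2 passed as lower, beside 1378 genes (11.6%). Against labelled dormant cells, 3 members passed as higher, beside 130 genes (1.1%), and 1 as lower, beside 727 genes (6.14%). Oas1g is among the higher members in both comparisons, and Oas3 is among those against proliferating cells. Oas1g and Oas3 met the filter of at least 6 cells only through the low-label cells. On the recovered reads, edgeR called 8 members higher and 2 lower than in proliferating cells (3.56% and 7.68% of all genes) and 0 and 2 against labelled dormant cells (0.532% and 5.32%). DESeq2 called 9 and 3 against proliferating cells (5.62% and 15.7% of all genes) and 6 and 3 against labelled dormant cells (3.34% and 13.8%). The members' median difference was 1.32 against proliferating cells, where the median of all genes was −1.39, and 1.35 against labelled dormant cells, where it was −1.47. Low-label cells also held fewer genes above 0, with a mean over mice of 5160, against 7022 in proliferating and 7376 in labelled dormant cells. What part of the medians of all genes goes with this lower detection was not tested. Positive values were found for 34 and 35 of the 45 members. The 2 comparisons share the low-label cells and are not independent of each other. Rescaling each cell by its median ratio to the average cell moved the median of all genes by 0.36 against proliferating cells, where 405 genes were then higher and 800 lower. Under that scaling 7 members were higher and 1 lower, with a median of 2.14 beside −1.02 over all genes. With the mouse as a block, 168 of all genes were higher and 4352 lower than in labelled dormant cells, and 4 members were higher and 3 lower. In the same fit 222 genes were higher and 3962 lower than in proliferating cells, with 7 members higher and 3 lower. Members that passed in that fit but not in the same fit without the block were Oasl1 (5.15, adjusted p = 0.0210), Ifit3 (4.51, adjusted p = 0.0278), Gbp3 (−4.27, adjusted p = 0.0096) and Herc6 (−2.80, adjusted p = 0.0407, and 0.42 without the block) against proliferating cells. Compared with labelled dormant cells, they were Ifit3 (4.12, adjusted p = 0.0365), Zbp1 (3.95, adjusted p = 0.0436), Ifi27 (3.70, adjusted p = 0.0468), Eif2ak2 (−3.85, adjusted p = 0.0178) and Isg20 (−4.03, adjusted p = 0.0308), all by limma. Over all alternatives run, Isg20 passed in 9 of 25 and Eif2ak2 in 7 of 25 against labelled dormant cells. Gbp3 passed in 2 of 24 against proliferating cells.

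Leukocyte genes moved with these differences. Of 17 tested pan-leukocyte genes 16 passed as higher in low-label than in proliferating cells, as did 11 of 14 monocyte and macrophage genes, while 2 of 3 tested tumour epithelial genes and 4 of 6 proliferation genes passed as lower. One of the 14 monocyte and macrophage genes stood below 0, at −3.79. All 9 tested neutrophil genes stood above 0 and 2 passed, and their list summed to between 0 and 794886 in the low-label cells (median 718). Lymphocyte and erythroid lists reached 4122 and 14806 in low-label cells, beside 2212 and 70644 in proliferating cells, and 0 of their tested genes passed. A list of plasmacytoid and other dendritic cell genes went the other way. Its 1 tested gene passed as lower against proliferating (−4.16, adjusted p = 0.0361, limma) and labelled dormant cells (−4.80, adjusted p = 0.0448, limma). Lyz2, the lysozyme of myeloid cells, was between 52145 and 188632 in the low-label cells, and Krt8, a keratin of the tumour cells, between 0 and 9.40. What part of the members' differences goes with this difference in cell content was not tested. Single mice carried much of the count: without mouse 369 only 1 member was higher and 1 lower than in proliferating cells, and without mouse 360 it was 3 and 1. In the comparison with labelled dormant cells, 0 members were higher without mouse 1185 and 1 without mouse 244, 360, 369 or 452, while 2 were lower without mouse 268 and 3 without mouse 288.

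**Figure D3:**
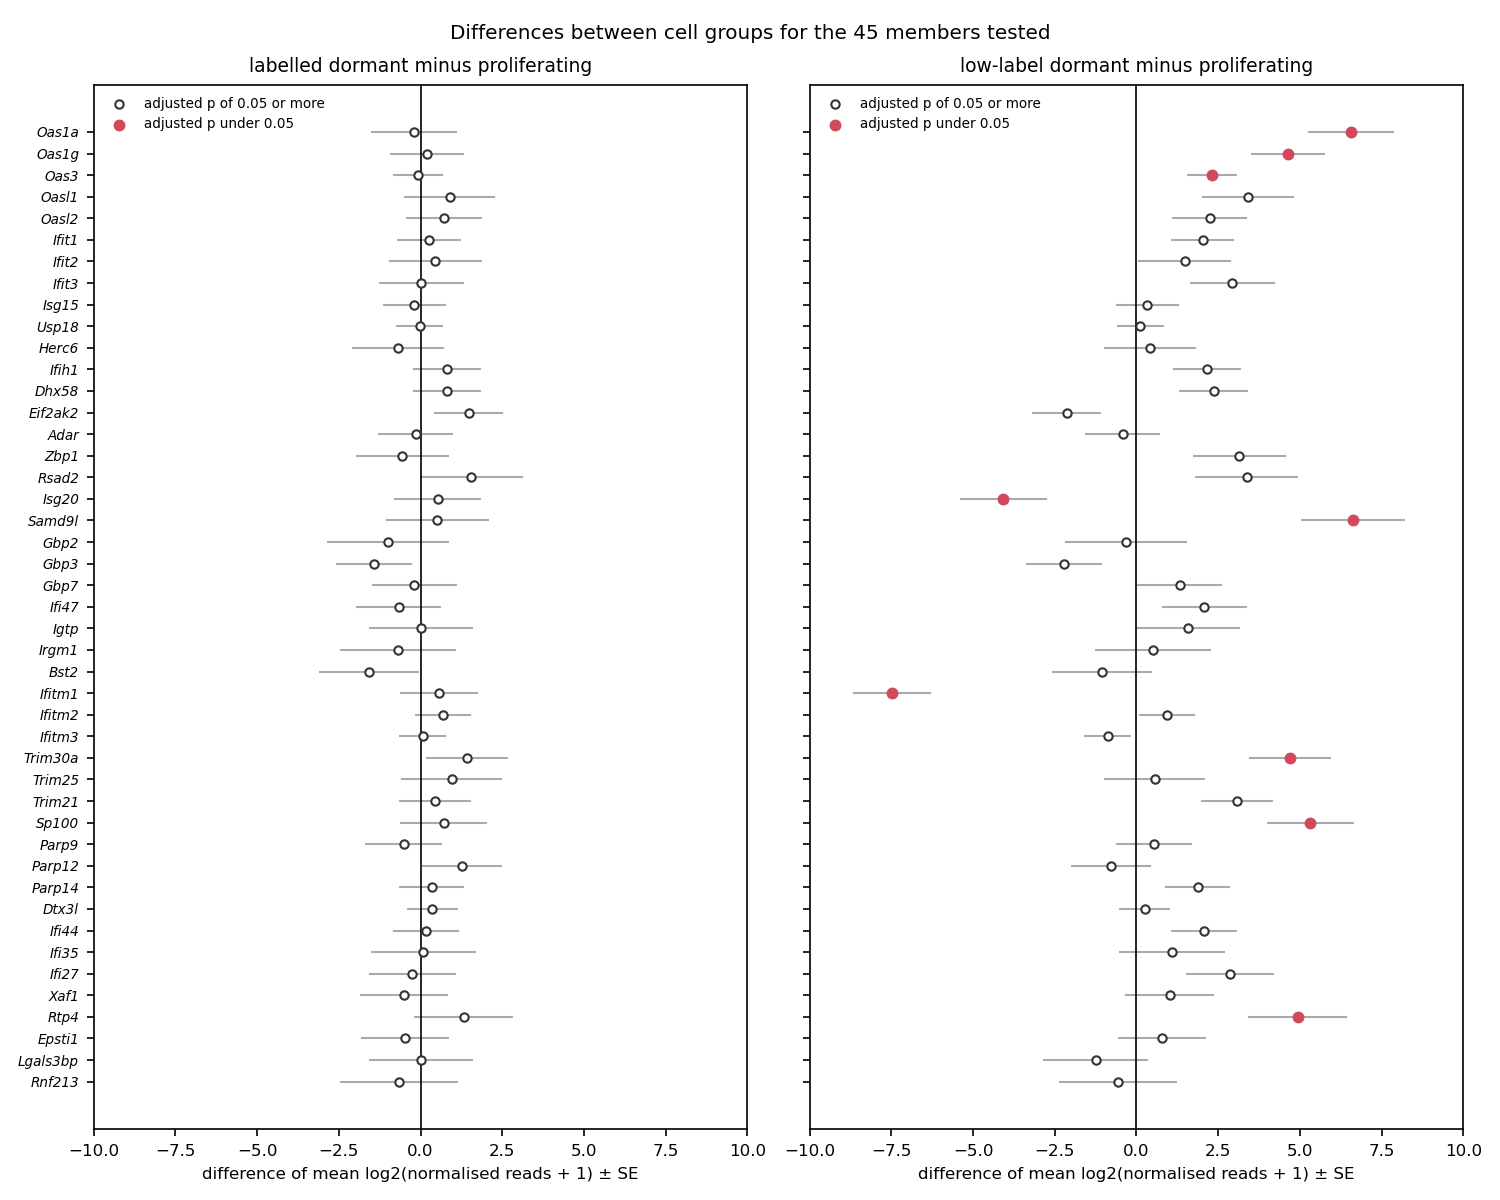
Difference of mean log2(normalised reads + 1) with its standard error for the 45 members tested, labelled dormant minus proliferating on the left and low-label dormant minus proliferating on the right. Filled points have an adjusted p under 0.05 (limma). No point is filled on the left. On the right 7 lie above 0, and Ifitm1 and Isg20 lie below.

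Oligoadenylate synthetases make the second messenger that activates RNase L, which degrades RNA in infected cells, and 3 of the 5 tested passed as higher in low-label cells. Among these, Oas1g and Oas3 could be tested only because of their values in the low-label cells. Oas1a was at 155, 692, 150, 0, 634 and 1354 normalised reads in the 6 low-label cells. Among the tumour-labelled cells, Oas1a was detected in 4 of 22 dormant (up to 108) and 4 of 29 proliferating cells (up to 130). The mean log2 value per mouse was 7.67 ± 2.39 (SD, n = 4) in low-label, 0.91 ± 1.27 (SD, n = 4) in labelled dormant and 1.11 ± 2.09 (SD, n = 6) in proliferating cells. All 4 low-label mouse means lay above all labelled dormant means, whereas the proliferating mean of mouse 360, at 5.21, lay within the low-label range. The difference was 6.56 against proliferating (SE 1.32, adjusted p = 0.0026, limma) and 6.76 against labelled dormant cells (SE 1.45, adjusted p = 0.0085, limma). The first passed with each of the 8 mice left out in turn, and the second was lost without mouse 1184 or mouse 1185.

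Oas1g was at 228, 169, 198 and 191 normalised reads in 4 low-label cells and at 0 in the remaining cells. It was above 0 in 1 labelled dormant cell, at 50.4, and in 2 proliferating cells, up to 80.1. Oas1g thus met the filter of at least 6 cells only through the low-label cells, and its calls as higher in them are tied to that filter. It passed as higher against proliferating (4.62, SE 1.14, adjusted p = 0.0105, limma) and against labelled dormant cells (4.43, SE 1.24, adjusted p = 0.0350, limma). With the mouse as a block the second had an adjusted p of 0.1099 (limma), and it was also lost without mouse 244, 452 or 1185. Without mouse 360 or 369, Oas1g and Oas3 were above 0 in too few cells to be tested. Oas3 reached 139 in the low-label cells and at most 5.28 in any proliferating cell, and passed only against proliferating cells (2.31, SE 0.76, adjusted p = 0.0448, limma). That call is tied to the filter as well, since Oas3 met it only through the low-label cells. It was also lost without any 1 of 5 mice. Oasl1 and Oasl2, which carry ubiquitin-like domains, stood at 3.41 (SE 1.40) and 2.24 (SE 1.15) against proliferating cells and did not pass. Oasl2 was above 0 in 6 labelled dormant, 4 low-label and 9 proliferating cells, with highest values of 167, 618 and 241.

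IFIT proteins bind foreign RNA at its 5′ end and block its translation, and none of the 3 passed in any comparison without the mouse as a block. Ifit2 was above 0 in 9 labelled dormant cells (highest 256), 8 proliferating cells (highest 85.2) and 2 low-label cells. Those 2 low-label cells, both from mouse 369, had values of 3972 and 289. Ifit1 was above 0 in 3 labelled dormant cells (highest 265), 4 low-label cells (highest 816) and 7 proliferating cells (highest 673). Ifit3 was at 5331 in 1 low-label cell of mouse 369 and at no more than 177 in any labelled dormant or proliferating cell. That same low-label cell had Rsad2 at 7903, Oasl1 at 5359 and Zbp1 at 2600, while Oas1a, Oas1g, Sp100, Trim30a and Irgm1 were at 0 in it.

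Isg15 is a ubiquitin-like modifier, Usp18 removes it and also restrains the type I receptor, and Herc6 is its mouse ligase. Herc6 was above 0 in 6 labelled dormant cells (highest 121), 2 low-label cells (highest 263) and 12 proliferating cells (highest 576). Isg15 was above 0 in 5 labelled dormant cells (highest 46.6), 2 low-label cells (highest 134) and 9 proliferating cells (highest 322). All 3 genes of the system stood below 0 in labelled dormant against proliferating cells, between −0.68 and −0.03, each within 1 standard error.

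Among the sensors and editors, Eif2ak2 and the RNA editor Adar were detected most. Eif2ak2 was above 0 in 13 labelled dormant cells (median 25.2, highest 416), 14 proliferating cells (median 0, highest 305) and 1 low-label cell at 9.22. All 4 low-label mouse means, at 0.00, 0.00, 0.00 and 1.68, lay below the 4 labelled dormant means of 2.74 to 5.13. The difference of −3.61 did not pass (SE 1.15, adjusted p = 0.0547, limma). Adar was above 0 in 12 labelled dormant, 3 low-label and 15 proliferating cells, with highest values of 129, 96.4 and 374. Zbp1, a sensor of Z-form nucleic acid, was above 0 in 5 of 6 low-label cells and stood at 3.14 against proliferating cells (SE 1.42) without passing. Ifih1, which encodes the RNA sensor MDA5, stood at 2.15 (SE 1.04) and did not pass.

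Samd9l, an antiviral factor that curbs translation, and Isg20, a 3′ to 5′ exonuclease, moved in opposite directions in the low-label cells. Samd9l was at 604, 855, 2091, 611 and 2764 normalised reads in 5 low-label cells and at 0 in the cell of mouse 1184. It was above 0 in 5 labelled dormant cells (highest 137) and 6 proliferating cells (highest 367). It passed as higher against proliferating (6.62, SE 1.59, adjusted p = 0.0091, limma) and labelled dormant cells (6.10, SE 1.74, adjusted p = 0.0380, limma). The first was lost without mouse 369 and the second without any 1 of 5 mice, and with the mouse as a block the second had an adjusted p of 0.0795 (limma). The within-group spread was set by mouse 1184, since the other low-label means lay between 9.24 and 10.39.

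Isg20 was above 0 in 16 labelled dormant cells (median 28.2, highest 422), 19 proliferating cells (median 26.1, highest 2233) and 0 low-label cells. With a floor of 3 reads over all 6 low-label cells together, the proliferating mean over mice was 364-fold and the labelled dormant mean 128-fold above that floor, in CPM (reads scaled to the total of each cell). The floor covers the counting of pooled reads only and not the spread between cells, where a count of 0 allows up to 50.0% of cells. The fitted differences were −4.08 (SE 1.33) against proliferating and −4.60 (SE 1.45) against labelled dormant cells. The proliferating mean of 86.4 ± 181 CPM (SD, n = 6 mice) was carried by mouse 268. It passed as lower against proliferating cells (adjusted p = 0.0425, limma), but this was lost without any 1 of 6 mice and with the mouse as a block (adjusted p = 0.1393). Against labelled dormant cells it did not pass (adjusted p = 0.0539, limma) but did so with the block (adjusted p = 0.0308). Isg20 already lay below the members' medians of 1.32 and 1.35, so setting it to that floor could not move them. Rsad2 stood at 3.38 against proliferating cells (SE 1.58) and did not pass.

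GBP and IRG GTPases attack the membranes around intracellular microbes. Irgm1 was above 0 in 16 labelled dormant cells (median 2.06, highest 430), 4 low-label cells (median 107, highest 3279) and 20 proliferating cells (median 230, highest 1025). Gbp2 was above 0 in 9 labelled dormant cells (highest 283), 3 low-label cells (highest 1422) and 13 proliferating cells (highest 4147). Igtp was above 0 in 8, 5 and 12 cells of the 3 groups, and its highest value was 953, in a proliferating cell. Gbp3 was above 0 in 3 of 22 labelled dormant cells and 15 of 29 proliferating cells, with highest values of 220 and 2654. Its proliferating mouse means were 6.06 in mouse 360 and 5.84 in mouse 369 and no more than 2.01 in the other 4 mice, so the groups overlapped. In labelled dormant against proliferating cells 5 of these 6 genes stood below 0 and 0 passed. Gbp3 also stood below 0 in low-label against proliferating cells (−2.22, SE 1.17), without passing.

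The membrane restriction factors block virus entry (the Ifitm proteins) or hold budding virus at the surface (Bst2), and Ifitm1 gave the largest difference of any member on the log2(normalised reads + 1) scale, on which the change of a low gene such as Isg20 is understated. Ifitm1 ranged from 36.9 to 11131 normalised reads in labelled dormant cells (median 2313) and from 278 to 8216 in proliferating cells (median 1825). In the 6 low-label cells it was at 64.4, 0, 6.83, 6.26, 2.28 and 2.66. The low-label mouse means of 1.48 to 6.03 lay below all labelled dormant means (8.95 to 12.11) and all proliferating means (8.12 to 12.74). Within mouse 369, which held all 3 groups, the mean was 11.67 in labelled dormant, 10.65 in proliferating and 2.29 in low-label cells. Ifitm1 passed as lower against proliferating (−7.48, SE 1.19, adjusted p = 0.0003, limma) and labelled dormant cells (−8.04, SE 1.30, adjusted p = 0.0007, limma). Both passed with each mouse left out in turn.

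Its neighbours on chromosome 7 behaved otherwise. Ifitm2 ranged from 399 to 4282 in labelled dormant (median 1448), from 258 to 3667 in proliferating (median 1048) and from 325 to 7073 in low-label cells (median 2004). The mean log2 values were 10.46 ± 0.26 (SD, n = 4), 9.78 ± 1.07 (SD, n = 6) and 10.71 ± 1.28 (SD, n = 4), and no difference passed. Ifitm3 ranged from 764 to 11077 in labelled dormant (median 3441), from 1416 to 13069 in proliferating (median 4530) and from 1214 to 9483 in low-label cells (median 1890). Its difference of −0.89 against proliferating cells (SE 0.72) did not pass and was positive, at 0.56, after rescaling. Bst2 was above 0 in 18 labelled dormant, 27 proliferating and 4 low-label cells, with medians of 40.7, 57.1 and 148, and did not pass. Of the 4 genes, only Ifitm1 had no GAAA repeat in its promoter window.

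**Figure D4:**
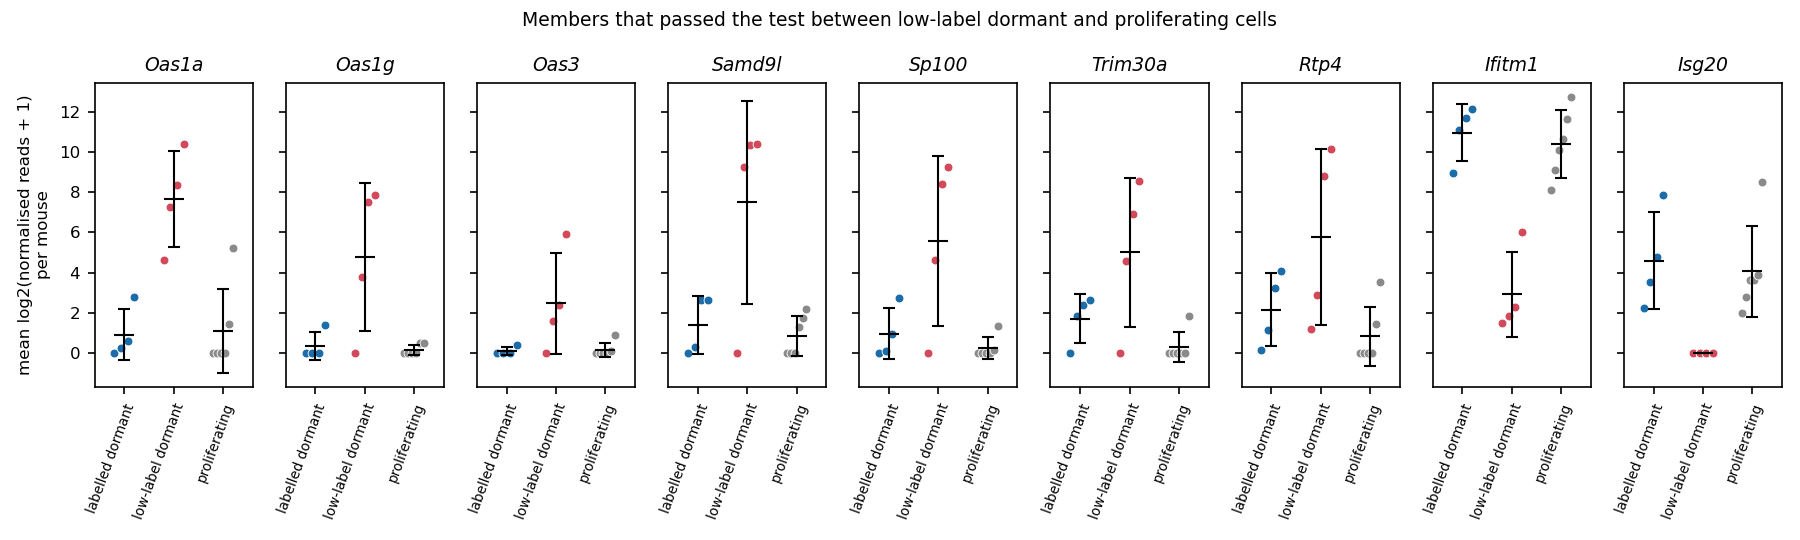
Mean log2(normalised reads + 1) per mouse for the 9 members that passed between low-label dormant and proliferating cells, 1 point per mouse in each group, with the mean and SD over mice as lines. All 4 low-label means of Oas1a lie above the labelled dormant means, but the proliferating mean of mouse 360 lies within their range. Ifitm1 is lower in all 4 low-label mice than in any mouse of the other groups. Oas1g, Oas3, Samd9l, Sp100 and Trim30a are at 0 in the low-label cell of mouse 1184.

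TRIM ligases tag proteins with ubiquitin in antiviral signalling, and Sp100 is a component of nuclear bodies that silence incoming viral genomes. Sp100 was at 337, 281, 1281 and 627 in 4 low-label cells and at 0 in the remaining 2. It was above 0 in 5 labelled dormant cells (highest 60.1) and 2 proliferating cells (highest 43.1). It passed against proliferating cells (5.31, SE 1.33, adjusted p = 0.0118, limma), but not without mouse 369 or with the mouse as a block (adjusted p = 0.0536). Against labelled dormant cells it stood at 4.61 (SE 1.46, adjusted p = 0.0541, limma). Trim30a was at 118, 155, 928 and 557 in the same 4 low-label cells and at 0 in the remaining 2. It was above 0 in 9 labelled dormant cells (highest 505) and 4 proliferating cells, all from mouse 369 (highest 205). It passed against proliferating cells (4.70, SE 1.26, adjusted p = 0.0174, limma), but not without mouse 360 or 369 or with the block (adjusted p = 0.0550). Trim25, which activates the RNA sensor RIG-I, was detected widely, in 18 labelled dormant (median 84.9), 5 low-label (median 362) and 22 proliferating cells (median 56.5), and did not pass. All 4 genes of the group stood above 0 in labelled dormant against proliferating cells, between 0.45 and 1.42, and 0 passed.

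PARP proteins and the ligase Dtx3l modify proteins with ADP-ribose and ubiquitin in the interferon response, and 0 of 4 passed in any comparison. Parp12 was above 0 in 12 labelled dormant cells (median 5.76, highest 294), 1 low-label cell (89.5) and 13 proliferating cells (highest 783). Parp14 was above 0 in 6, 4 and 8 cells of the 3 groups, with highest values of 126, 350 and 839.

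Of the other interferon-induced genes, only Rtp4, a chaperone of receptor trafficking that also restrains viruses, passed without the mouse as a block. Rtp4 was at 6.44, 289, 689, 454, 2787 and 1.33 in the 6 low-label cells. It was above 0 in 8 labelled dormant cells (highest 193) and 9 proliferating cells (highest 380). It passed against proliferating cells (4.93, SE 1.51, adjusted p = 0.0325, limma), and this was lost without any 1 of 5 mice. Ifi27 was between 214 and 667 in the 6 low-label cells. Its medians were 136 in labelled dormant cells (19 of 22 above 0) and 140 in proliferating cells (24 of 29 above 0). All 4 low-label means of Ifi27 lay above the 4 labelled dormant means, but the difference of 3.11 did not pass (SE 1.47). Ifi35 was above 0 in 17 labelled dormant (median 72.8), 4 low-label (median 308) and 22 proliferating cells (median 85.8), with no difference that passed.

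The rest of the pathway was described from lists of its genes. None of the 21 interferon ligand genes listed was in the table, so the ligands were not analysed here. Of 32 tested genes for sensors that induce interferon, receptors, kinases, STATs, interferon regulatory factors and negative regulators, 0 passed between labelled dormant and proliferating cells. In that comparison 23 were positive, with a median of 0.24 beside 0.10 over all genes. Ifnar1, a chain of the type I receptor, was above 0 in 16 of 22 labelled dormant cells (median 154) and in 14 of 29 proliferating cells (median 0). Its difference was 2.41 (SE 1.84) and did not pass. Ifngr1 had medians of 157 in labelled dormant, 165 in proliferating and 80.7 in low-label cells.

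Genes of these lists also passed between low-label and proliferating cells, in both directions. Of the 32 tested, 2 passed as lower, beside 1378 of 11841 genes (11.6%), so lower calls were no more frequent here than over all genes. As higher, 2.74% of all genes passed. Irf7, which amplifies type I responses, stood at 3.73 (SE 1.26, adjusted p = 0.0496, limma) and Irf5, a factor of myeloid cells, at 6.37 (SE 1.61, adjusted p = 0.0125, limma). Ptpn6, a phosphatase of blood cells that is also on the pan-leukocyte list, stood at 8.09 (SE 1.59, adjusted p = 0.0021, limma). Passing as lower were Tmem173, which encodes the DNA-sensing adaptor STING (−5.47, SE 1.41, adjusted p = 0.0136, limma), and the phosphatase Ptpn2 (−5.11, SE 1.49, adjusted p = 0.0262, limma). The Irf5 and Tmem173 calls were lost without mouse 369, that of Ptpn2 without any 1 of 4 mice and that of Irf7 without any 1 of 6. With the mouse as a block, Irf5 had an adjusted p of 0.0549 and Irf7 of 0.0648 (limma). Against labelled dormant cells, Ptpn6 was higher (6.49, SE 1.74, adjusted p = 0.0290, limma) and Tmem173 lower (−5.64, SE 1.54, adjusted p = 0.0312, limma), and 0 others passed. Of all genes, 1.1% passed as higher and 6.14% as lower in that comparison. The Ptpn6 call was lost without any 1 of 3 mice and that of Tmem173 without any 1 of 4. With the block, Ptpn2 (adjusted p = 0.0079), Mavs (0.0367), Ifnar1 (0.0373) and Pias1 (0.0412) also passed as lower (limma). In that fit 4352 of all 11841 genes were lower, so lower calls were common there. Ifnar1 stood at −0.83 without the block. Stat2 was above 0 in 5 labelled dormant, 4 low-label and 6 proliferating cells, Irf9 in 9, 4 and 11, and Socs1 in 9, 2 and 15.

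Set beside the promoters, 6 of the 7 members that were higher in low-label than in proliferating cells had a window, and 4 of these (Oas1a, Oas1g, Oas3 and Trim30a) held the GAAA repeat, beside 19 of 39 over all members (48.7%). The calls of Oas1g and Oas3 are tied to the filter, which they met only through the low-label cells. Neither Ifitm1 nor Isg20, which were lower, held the GAAA repeat, and the Isg20 window held TTCNNNGAA.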

How the data were processed

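Single cells were measured by RNA-seq from full-length cDNA (SMARTer, with ERCC spike-ins), as the labels' protocols state. STAR, RSEM, GRCm38 and mm10 are named per the submitters' processing notes. The deposited signal values are reads normalised by the authors with BASiCS, per the labels. In every cell 100% of the gene values were whole multiples of 1 step (tolerance 0.01), so read counts were recovered from the deposited values. Identifiers were matched to symbols for 12852 of 12885 genes. The series text states 32 proliferating cells, and 29 were analysed here.

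Within each mouse and group, log2(value + 1) was averaged over cells (14 averages). These were fitted in 1 model with limma 3.58.1 in R 4.3.3 (trend and robust moderation) over genes above 0 in at least 6 of 57 cells, with Benjamini-Hochberg adjustment at 0.05, two-sided. The fit was also run on simulated data, with cells redrawn at random over all mice and groups. Such data hold no differences between mice, so no conclusion is drawn from them here. edgeR 4.0.16, DESeq2 1.42.0, other pseudocounts, filters and thresholds, and leaving out each mouse were alternatives. Mouse numbers pair groups per the labels. Deviations from the group means correlated at 0.441, 0.126 and 0.018 in the 3 mice with labelled dormant and proliferating cells, at 0.063 and 0.053 for low-label and proliferating, and at −0.050 and 0.090 for low-label and labelled dormant cells. P-values measure the spread between these averages, some of which hold 1 cell, so the spread between cells is part of it. Without the block, averages of the same mouse in different groups were treated as independent.

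Described genes were the 2 members of each role group above 0 in the most cells and up to 5 with the smallest p in each direction; others were named after their values were seen. The members and lists were chosen with earlier results of these data known. One pathway gene is not reported here.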

Additional observations from a re-analysis of the deposited data

Results flagged for a closer look

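Of 29 sets of mouse means of the leading members checked, 9 held a mouse that stood far from the others, where chance gives about 1 in 20 for values that vary evenly. That rate does not hold for sets in which most mice were at 0, where 1 cell with the gene sets its mouse apart. Sets of that kind were Trim30a, Oas3, Sp100 and Oas1g. In proliferating cells, the mean log2 value of Sp100 was 1.37 in mouse 1185 and at most 0.17 in the other 5 mice. The mean of Trim30a was 1.84 in mouse 369 and 0.0 in the others. Oas3 stood at 0.88 in mouse 360, Oas1a at 5.21 in mouse 360 against at most 1.43 elsewhere, and Isg20 at 8.48 in mouse 268 against at most 3.90. In labelled dormant cells, Oas3 was at 0.39 in mouse 369 and Oas1g at 1.42 in mouse 1184, with 0.0 in the other 3 mice for each. In low-label cells, mouse 1184, with 1 cell, had Samd9l at 0.0 where the others were at 9.24 or above. The same cell had 10 members above 0, against means of at least 29 in the other 3 mice.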

How the results depend on the processing

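Between labelled dormant and proliferating cells, 0 members passed under every alternative run, with a median difference of −0.33 to 0.59 over all of them and of 0.079 to 0.376 with mice left out in turn. The calls of the low-label cells, which rest on 6 cells of 4 mice, moved more. Against proliferating cells (7 higher, 2 lower), leaving out 1 mouse gave 1 to 9 higher and 1 to 2 lower, with a median of 0.73 to 2.33. Members called higher numbered 1 among genes above 0 in at least 20 cells, 4 with the log2 of mean values, 3 at an eCFP threshold of 10, 14 without cells of fewer than 4000 genes, 11 in the table of the 4 mice with both states and 4 without the low-label cell nearest the threshold. Members called lower numbered 1 with a pseudocount of 10, means weighted by cells, rescaled cells, without cells of fewer than 4000 genes, in the table of 4 mice and without the low-label cell of mouse 1184. At an eCFP threshold of 1000 they numbered 0 and 0. The median was 2.91 in edgeR with DESeq2 size factors, 2.91 in DESeq2 and 2.96 in the table of 4 mice. Against labelled dormant cells (3 higher, 1 lower), leaving out 1 mouse gave 0 to 4 higher and 1 to 3 lower, with a median of 0.91 to 2.45. Higher and lower calls were 0 and 3 among genes above 0 in at least 20 cells, 0 and 2 in edgeR with TMM, 0 and 2 with DESeq2 size factors, 6 and 3 in DESeq2, 0 and 2 at an eCFP threshold of 10, 0 and 0 at 1000, and 1 and 2 without the cell nearest the threshold. Lower calls were 2 with a pseudocount of 0.1 and 3 with the log2 of mean values. Higher calls were 8 with weighted means, 8 without cells of fewer than 4000 genes, 9 in the table of 4 mice and 7 without the cell of mouse 1184. The median was 3.26 in edgeR with TMM, 3.38 with DESeq2 size factors, 3.39 in DESeq2 and 3.38 in the table of 4 mice. With the mouse as a replicate block, 3 members were lower than in labelled dormant cells, and the members whose calls it changed are named in the results. Leaving out single low-label cells was chosen after seeing the data.

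Some differences that did not pass changed sign. Between labelled dormant and proliferating cells, Herc6 was at 0.22 with the log2 of mean values, Rtp4 at −0.22 with weighted means, Parp12 at −0.084, −0.016 and −0.013 in edgeR with TMM, edgeR with DESeq2 size factors and DESeq2, and Ptpn6 at −0.68 in the table of 4 mice. With low-label cells kept in the dormant group Eif2ak2 was at −0.14, Ifi47 at 0.68 and Herc6 at 0.33. With mice left out, Gbp2 ranged from −1.63 to 0.20, Herc6 from −1.10 to 0.28, Ptpn6 from −0.21 to 2.46 and Ifi47 from −1.05 to 0.0098. Ifitm3 in low-label against proliferating cells was at 0.56 after rescaling, 0.078 in edgeR with TMM, 0.32 with DESeq2 size factors and 0.32 in DESeq2. Against labelled dormant cells it was at 0.40, and at 0.024 with DESeq2 size factors and 0.024 in DESeq2. The cause of these changes was not tested. Depth limited single members, since 1 read is worth up to 3.29 normalised reads and many members were above 0 in few cells.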
